A study of Mus musculus with 22 samples.

Results

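Glutathione is the main small thiol with which brain cells detoxify peroxides and reactive compounds, and 10 genes of its chemistry and of the antioxidant response were followed here across 6 cell types of the mouse brain. The genes were taken by symbol from a table of 55385 genes, and their transcript values were added up per gene: Nfe2l2, Slc7a11, Gclc, Gclm, Gss, Gsr, Gpx1, Gpx4, Gstm1 and Gstm5. All 10 were found and all 10 passed the low-count filter that kept 20524 genes for testing.

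The measurement was mRNA bound to HA-tagged ribosomes (RiboTag), immunoprecipitated from 6-week-old mice that all carried Rpl22 Fl/+ and a Cre driver, so each library holds the translatome of the cells in which that driver was active. Rbp4-Cre tagged dentate gyrus granule cells when hippocampus was used and layer V cortical neurons when cortex was used, Gabra6-Cre tagged cerebellar granule cells, and Dlx6a-Cre tagged inhibitory interneurons of the hippocampus, with tissue of 2 mice pooled in each interneuron library. Cortical astrocytes (labelled Aldh1-cre) and cortical microglia (labelled Tmem119-cre) complete the set, and the study's methods name tamoxifen-inducible Cre/ERT2 lines for both. Those methods state that tamoxifen was given by gavage for inducible lines, and the Cre lines of the neurons are not named as inducible. There were 22 libraries of 18 replicates, 3 per cell type, because 4 replicates were sequenced in both of 2 batches. The batch 1 library was used for those 4, and microglia and interneurons exist in batch 2 alone. Because cell type, brain region, Cre line, tamoxifen treatment and batch change together between several of the groups, these cannot be told apart for a difference between them. Tamoxifen goes with every comparison of glia against neurons.

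The depth ran from 38270477 to 71440915 estimated counts per library. Markers of the labelled cell type were highest in their own libraries for astrocytes, microglia, interneurons and both granule cell types. The 4 layer V markers were not: their summed level was 249 to 263 TPM in layer V libraries and 712 to 745 TPM in cerebellar granule cells. The cerebellar sum was nearly all Etv1 (728 TPM on average), with Rbp4, Fezf2 and Bcl11b at most 0.116 TPM there. Fezf2 was highest in layer V neurons (85.5 TPM), Rbp4 in interneurons (87.0 TPM) and Bcl11b in dentate gyrus granule cells (160 TPM). Oligodendrocyte markers summed to 2766 to 2960 TPM in interneuron libraries against 104 to 405 TPM in the other neurons, and choroid plexus markers reached 3655 TPM in astrocyte replicate 1 against 5.58 and 12.2 TPM in replicates 2 and 3. Endothelial markers summed to 258 to 382 TPM in microglia libraries, against 3.24 to 55.1 TPM in those of the other cell types. In 21 of 22 libraries the sex-linked mRNAs matched the label. The exception, the batch 2 library of layer V replicate 1, was not among the 18.

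As background, Nfe2l2 encodes NRF2, the transcription factor that KEAP1 keeps unstable until oxidants or electrophiles release it, after which it binds antioxidant response elements in the promoters of detoxification genes. Slc7a11 encodes xCT, the transport subunit of the exchanger that brings in cystine in return for glutamate. Gclc and Gclm encode the catalytic and modifier subunits of glutamate-cysteine ligase, the rate-limiting enzyme of glutathione synthesis, and Gss encodes glutathione synthetase, which adds glycine. Gsr returns oxidised glutathione to its reduced form, Gpx1 and Gpx4 are selenium-dependent peroxidases that use it (Gpx4 acts on lipid peroxides), and Gstm1 and Gstm5 are mu-class transferases that couple it to electrophiles. Astrocytes are known for supplying neighbouring neurons with glutathione precursors.

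In the mouse genome (GRCm38, GENCODE M21 coordinates), 4 of the 10 genes lie on chromosome 3: Slc7a11 (chr3:49892526-50443614, minus strand), Gstm5 (chr3:107895821-107898686, plus strand), Gstm1 (chr3:108012255-108017973, minus strand) and Gclm (chr3:122245557-122270732, plus strand). Gstm5 and Gstm1 are 113568 bases apart. Nfe2l2 (chr2:75675513-75704641) and Gss (chr2:155563181-155592810) lie on the minus strand of chromosome 2, Gclc (chr9:77754535-77794485) and Gpx1 (chr9:108338903-108340343) on the plus strand of chromosome 9, Gsr at chr8:33652523-33698163 and Gpx4 at chr10:80047166-80056439.

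Promoter windows of 300 bases (250 before and 50 after the annotated start, RefSeq, GRCm38.p6) were at hand for 8 of the 10 genes, not for Gclc and Gsr. They were searched on both strands for the antioxidant response element core TGACNNNGC, for the AP-1 letters TGANTCA, for TATAAA and for the PU.1 core GAGGAAG. The response element core was in the windows of 3 genes, Nfe2l2, Gclm and Gstm5, and in 12.4% of all 32817 windows. AP-1 letters were in the Gstm5 window (7.81% of all windows), TATAAA in those of Gstm1 and Gstm5 (13.6%), and GAGGAAG in that of Slc7a11 (13.6%). In the Gstm5 window the AP-1 letters (bases 75 to 81) and the response element core (bases 209 to 217) do not overlap. The windows are shown for the 3 genes with the core. For Gstm1, which shares its highest cell type with Gstm5, the window with TATAAA is shown. Another Gstm1 window (chr3:108017924-108018223), set on the start of the main transcript Gstm1-201, held none of these motifs and is not shown. Capitals mark every match to one of these motifs, and each window is written 5′ to 3′ on the gene's strand.
Gstm5 (chr3:107895604-107895903, plus): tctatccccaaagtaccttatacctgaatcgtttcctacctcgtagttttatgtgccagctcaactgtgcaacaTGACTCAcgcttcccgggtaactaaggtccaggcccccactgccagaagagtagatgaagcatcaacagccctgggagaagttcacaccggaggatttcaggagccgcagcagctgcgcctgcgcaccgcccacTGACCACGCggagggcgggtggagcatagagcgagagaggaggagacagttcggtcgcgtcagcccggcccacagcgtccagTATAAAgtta
Gstm1 (chr3:108017769-108018068, minus): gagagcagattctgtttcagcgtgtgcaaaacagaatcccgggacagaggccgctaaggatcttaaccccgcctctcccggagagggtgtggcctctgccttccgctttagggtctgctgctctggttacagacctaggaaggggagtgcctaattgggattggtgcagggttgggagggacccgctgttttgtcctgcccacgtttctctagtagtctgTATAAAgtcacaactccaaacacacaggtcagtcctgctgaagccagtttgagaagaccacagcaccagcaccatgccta
Gclm (chr3:122245307-122245606, plus): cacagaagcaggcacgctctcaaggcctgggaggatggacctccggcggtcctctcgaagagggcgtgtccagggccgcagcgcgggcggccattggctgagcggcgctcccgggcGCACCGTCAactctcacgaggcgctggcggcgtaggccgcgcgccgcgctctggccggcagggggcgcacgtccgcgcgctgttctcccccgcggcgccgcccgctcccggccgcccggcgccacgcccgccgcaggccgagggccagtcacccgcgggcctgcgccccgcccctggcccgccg
Nfe2l2 (chr2:75704614-75704913, minus): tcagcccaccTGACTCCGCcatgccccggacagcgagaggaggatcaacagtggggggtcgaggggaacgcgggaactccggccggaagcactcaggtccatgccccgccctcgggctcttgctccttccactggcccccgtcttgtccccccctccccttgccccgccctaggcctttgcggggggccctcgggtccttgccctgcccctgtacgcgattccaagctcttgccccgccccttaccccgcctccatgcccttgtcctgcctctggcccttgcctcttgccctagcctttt
A match is a stretch of letters and does not show binding.

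The level of Nfe2l2 mRNA separated glia from neurons. In TPM, a level set against transcript length and library size that can be compared between genes, it was 136, 143 and 136 in the 3 microglia libraries and 50.7, 49.9 and 51.5 in the astrocyte libraries. Cerebellar granule cells held 3.62, 3.35 and 4.13 TPM, interneurons 2.28, 2.45 and 2.18 TPM and dentate gyrus granule cells 2.02, 1.90 and 2.35 TPM. Layer V neurons were lowest, at 0.361, 0.266 and 0.128 TPM, on 8 to 22 estimated counts per library. Every glial library was therefore above every neuronal library, and only interneurons and dentate gyrus granule cells overlapped among neighbours in the order. The highest mean was 548 times the lowest.

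Slc7a11 was highest in astrocytes, at 46.4, 55.0 and 48.5 TPM, and next in microglia, at 6.15, 5.19 and 6.89 TPM. In neurons it lay between 0.193 TPM (a cerebellar granule cell library) and 1.06 TPM (an interneuron library). The order ran from astrocytes through microglia, interneurons, dentate gyrus granule cells and layer V neurons to cerebellar granule cells, and only dentate gyrus granule cells and layer V neurons overlapped. The counts behind the neuronal values were small, 26 to 45 per cerebellar granule cell library and 44 to 204 in the other neurons.

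**Figure D1:**
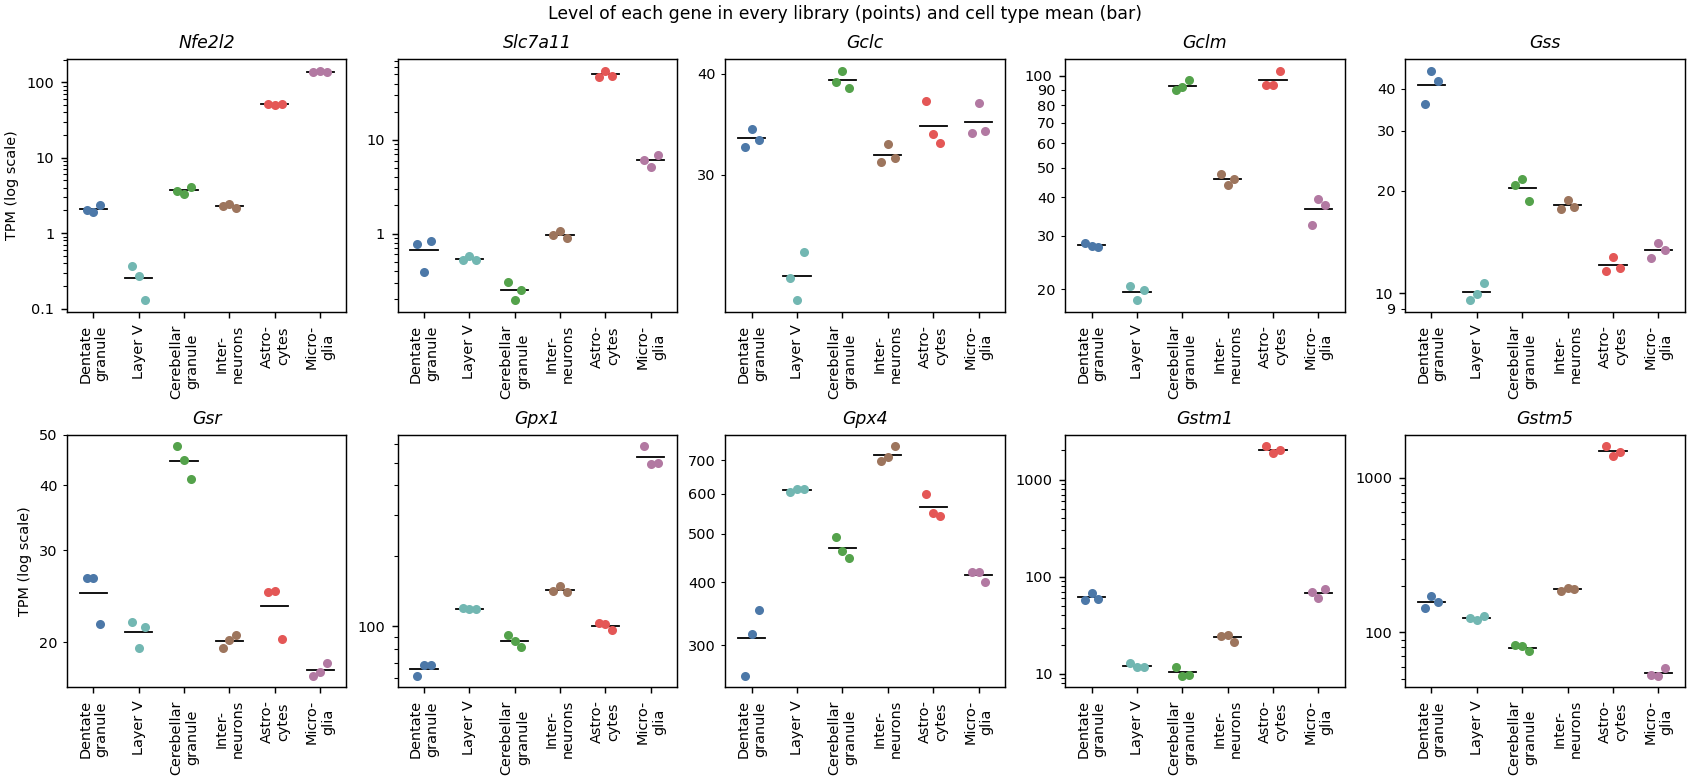
Level of each of the 10 genes in TPM (vertical axis, log scale, a separate range in each panel) in the 18 libraries, 3 points for each of the 6 cell types, with the mean as a bar. Nfe2l2 and Gpx1 are highest in microglia, Slc7a11, Gstm1 and Gstm5 in astrocytes and Gss in dentate gyrus granule cells, while all Gclc points lie between 21.0 and 40.4 TPM.

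The subunits of glutamate-cysteine ligase differed from each other. Gclc, the catalytic one, stayed within 1.75-fold across the cell type means, from 22.5 ± 1.54 TPM (SD, n = 3) in layer V neurons to 39.3 ± 0.979 TPM in cerebellar granule cells, and the ranges of microglia, astrocytes, dentate gyrus granule cells and interneurons overlapped from each to the next. Gclm, the modifier, spanned 4.93-fold. It was 93.3, 93.0 and 104 TPM in astrocytes and 89.6, 91.8 and 96.5 TPM in cerebellar granule cells, which overlapped. It was 45.9 ± 1.83 TPM in interneurons, 36.6 ± 3.63 TPM in microglia, 27.9 ± 0.403 TPM in dentate gyrus granule cells and 19.6 ± 1.11 TPM in layer V neurons, with no overlap between these neighbours. The ratio of Gclc to Gclm was therefore 0.358 ± 0.0405 in astrocytes and 0.425 ± 0.0226 in cerebellar granule cells, against 1.20 ± 0.043 in dentate gyrus granule cells and 1.15 ± 0.0619 in layer V neurons.

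Gss had a single high cell type. Dentate gyrus granule cells held 36.0, 45.2 and 42.1 TPM, and every other library lay between 9.52 TPM (layer V) and 21.7 TPM (cerebellar granule cells). Gsr was highest in cerebellar granule cells, at 47.5, 44.7 and 41.1 TPM, above all other libraries, which lay between 17.2 and 26.5 TPM. Its lowest level was in microglia, 17.7 ± 0.529 TPM, below the neighbouring interneurons without overlap.

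Of the peroxidases, Gpx1 was 588, 494 and 500.2 TPM in microglia, 3.67 times the mean of the next cell type, interneurons (144 ± 4.96 TPM). All 6 cell types were separated from their neighbours in its order, down to 66.2 ± 4.04 TPM in dentate gyrus granule cells. Gpx4 was the more evenly spread, from 718 ± 25.5 TPM in interneurons to 310 ± 45.9 TPM in dentate gyrus granule cells, a range of 2.32-fold. It exceeded Gpx1 by 4.66 to 5.60 times on average in neurons and astrocytes, and microglia were the exception with a ratio of 0.787 ± 0.0672.

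The transferases had the largest levels of these genes in astrocytes, whereas Gpx4 was the highest in every neuron type and Gpx1 in microglia. Gstm1 was 2212, 1880 and 2035 TPM in astrocytes, and 68.5 ± 7.10 TPM in microglia and 61.7 ± 5.10 TPM in dentate gyrus granule cells, which overlapped. Interneurons held 23.8 ± 1.90 TPM, and layer V neurons (12.1 ± 0.679 TPM) and cerebellar granule cells (10.4 ± 1.24 TPM) overlapped at the bottom. Gstm5 was 1607, 1389 and 1475 TPM in astrocytes, 190 ± 3.48 TPM in interneurons, 158 ± 14.1 TPM in dentate gyrus granule cells, 124 ± 3.24 TPM in layer V neurons, 79.8 ± 3.69 TPM in cerebellar granule cells and 54.8 ± 3.88 TPM in microglia, with no overlap between neighbours. The neurons thus held several times more Gstm5 than Gstm1 (ratios of Gstm1 to Gstm5 from 0.0975 ± 0.00559 in layer V neurons to 0.390 ± 0.0102 in dentate gyrus granule cells), while both glial types held more Gstm1 (1.37 ± 0.0148 in astrocytes, 1.25 ± 0.079 in microglia). In microglia Gstm1 and Gstm5 stood at 3.36% and 3.68% of their astrocyte level, within the range of astrocyte markers there (1.58 to 7.32%). The part of astrocyte RNA in the microglial ratio was not tested.

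**Figure D2:**
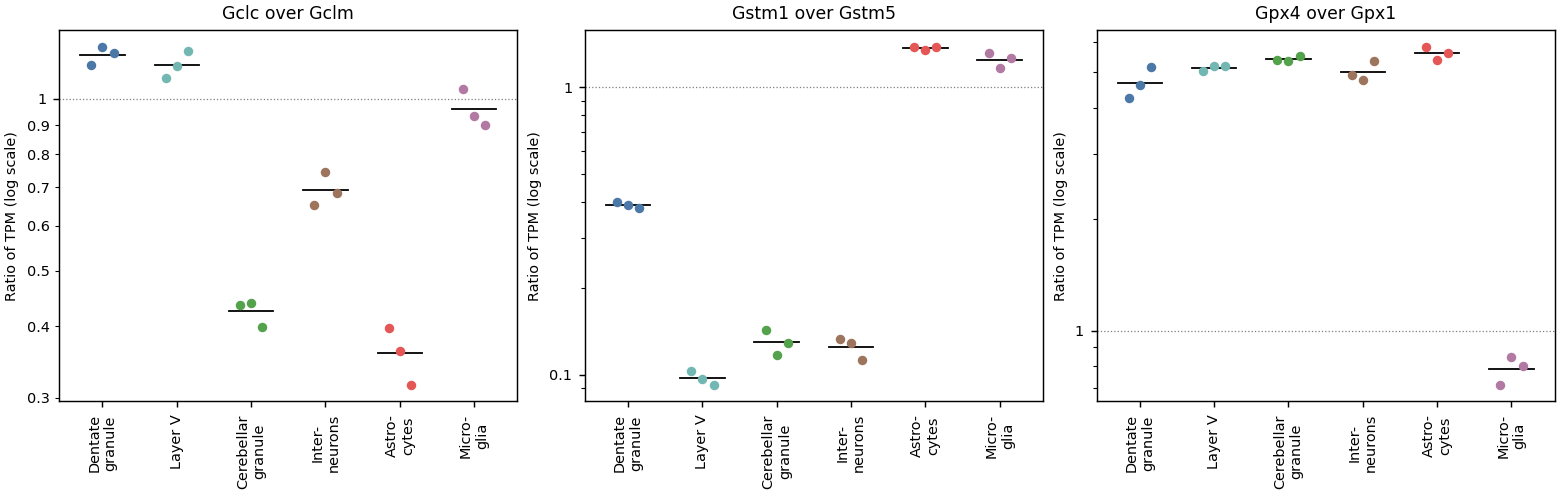
Ratio of TPM of 2 genes (vertical axis, log scale) in each of the 18 libraries, 3 points per cell type with the mean as a bar and a dotted line at 1. Gclc to Gclm is lowest in astrocytes (0.358) and cerebellar granule cells (0.425), Gstm1 to Gstm5 is above 1 in both glial types alone, and Gpx4 to Gpx1 is below 1 in microglia alone. The part of astrocyte RNA in the microglial Gstm1 and Gstm5 values was not tested.

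How much of a low value could be RNA of another cell type is measured here by markers. The 6 astrocyte markers stood at 1.58 to 7.32% of their astrocyte level in microglia libraries (median 3.01%), and Gstm1 stood at 3.36%, Gstm5 at 3.68% and Slc7a11 at 12.2% there. In dentate gyrus granule cells the markers were at 0.499 to 2.84%, Gstm1 at 3.02%, Slc7a11 at 1.32% and Gstm5 at 10.6%. For the other 3 neuron types Gstm1 lay within the range of the markers, as did Slc7a11 (in layer V neurons through Aldh1l1 alone, at 7.92%, the other 5 markers being at 0.291 to 0.635%), whereas Gstm5 lay above it, at 12.8% in interneurons, 8.33% in layer V neurons and 5.36% in cerebellar granule cells. The part of astrocyte RNA in the Gstm1 and Gstm5 values of microglia and in the Gstm1 and Slc7a11 values of neurons was not tested. In these bulk samples fewer cells of a type and less RNA per cell cannot be told apart. Microglia markers were at 0.261 to 0.717% of their microglial level in astrocytes, where Nfe2l2 was at 36.7% and Gpx1 at 19.1% of theirs. Neuronal RNA was present in the glial libraries. The 4 neuron markers summed to 716 to 982 TPM in astrocyte libraries and 346 to 390 TPM in microglia libraries. In the neuron libraries they summed to 3079 to 14013 TPM. The part of neuronal RNA in the glial values was not tested.

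**Figure D3:**
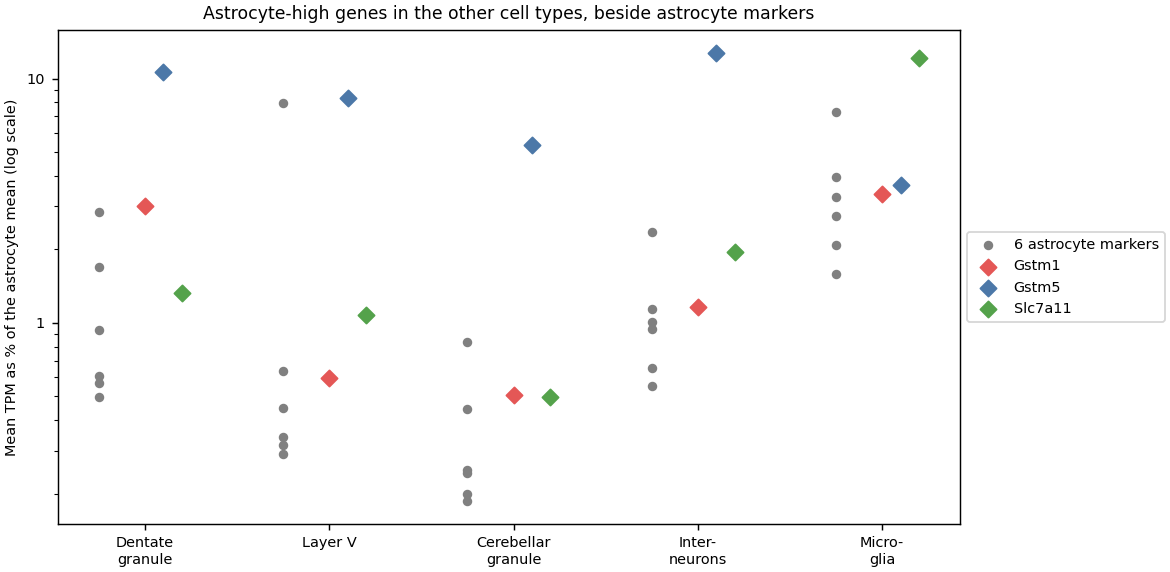
Mean TPM in each of the 5 other cell types as a percentage of the astrocyte mean (vertical axis, log scale), for 6 astrocyte markers (grey points) and for Gstm1, Gstm5 and Slc7a11 (diamonds). Gstm5 lies above all markers in the 4 neuron types and within them in microglia, where Slc7a11 stands at 12.2%.

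Differences between cell types were tested with edgeR's quasi-likelihood test on the estimated counts of all 20524 genes, with Benjamini-Hochberg adjustment, and a gene is called at an adjusted p of at most 0.05. The means that follow are over cell types on the log2 scale, so neurons stand for the average of the 4 neuron types. Against neurons, astrocytes had 8 of the 10 genes higher and 1 lower, where 43.0% of all genes tested were called higher and 34.1% lower. The median log2 fold change of the 10 was 0.71 against 0.14 for all genes. On log2(TPM + 1) with limma 6269 genes were higher and 9280 lower, against 8817 and 6997 here. Slc7a11 was higher by 7.02 ± 0.11 (log2 fold change ± SE, adjusted p = 1.3e-19), Gstm1 by 6.87 ± 0.06 (7.0e-23), Nfe2l2 by 5.39 ± 0.08 (2.6e-20) and Gstm5 by 3.65 ± 0.04 (3.6e-22), and for these 4 no astrocyte library overlapped any neuronal library in counts scaled to library size. The other 4 rises were small: 0.99 ± 0.04 for Gclm, 0.42 ± 0.05 for Gpx4, 0.39 ± 0.04 for Gclc and 0.25 ± 0.05 for Gpx1, with overlapping libraries. Gss was the 1 gene that fell, by 0.44 ± 0.06, and Gsr was at -0.02 ± 0.05 (adjusted p = 0.71). The Gpx1 rise was not called on the log2(TPM + 1) scale (0.02), and Gsr was called lower (-0.11) without dentate gyrus replicate 3. Within batch 2, where astrocytes have 1 library, the Gpx1 difference was 0.26, given without a test. Without astrocyte replicate 1, the library with choroid plexus markers, 8 genes were again higher and 1 lower.

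Against the same neurons, microglia had 5 genes higher and 5 lower, where 45.1% of all genes were called higher and 37.2% lower, and the median of the 10 was 0.11 against 0.15 for all genes. The rises were in Nfe2l2 (6.76 ± 0.07, adjusted p = 7.0e-22), Slc7a11 (3.84 ± 0.12), Gpx1 (2.56 ± 0.05, 6.3e-19), Gstm1 (1.87 ± 0.06) and Gclc (0.34 ± 0.04). Gstm5 fell by 1.09 ± 0.05 and Gclm by 1.06 ± 0.04, both without overlap of libraries in counts scaled to library size, and Gsr (-0.37 ± 0.05), Gss (-0.28 ± 0.06) and Gpx4 (-0.12 ± 0.05) fell by less. The fall of Gclm was not called with length-scaled counts, as described next, and that of Gpx4 (adjusted p = 0.027) was lost with DESeq2 (-0.09), with RLE factors (-0.08), with protein-coding transcripts alone (-0.06) and without interneurons (0.02).

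**Figure D4:**
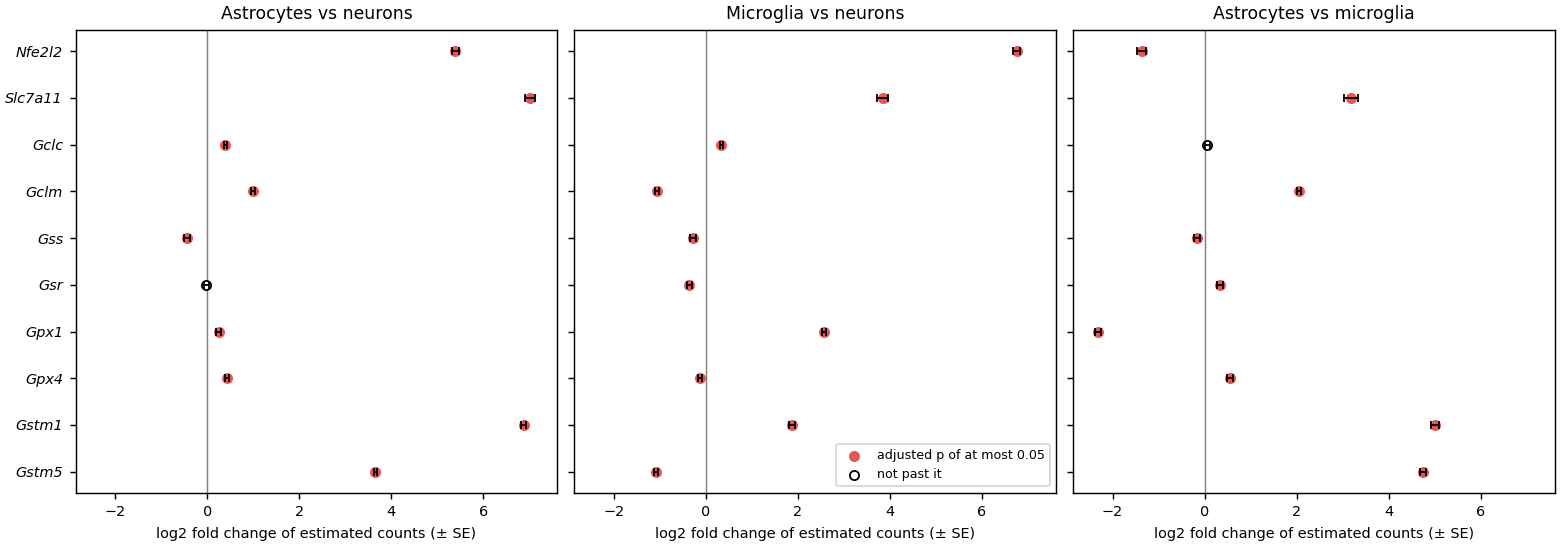
log2 fold change of estimated counts (horizontal axis) with its SE for the 10 genes in astrocytes against the 4 neuron types, microglia against the 4 neuron types and astrocytes against microglia, 3 libraries per cell type. Filled points passed an adjusted p of 0.05 in edgeR, and the open points are Gsr against neurons (-0.02) and Gclc between the glia (0.06).

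The Gclm counts came from transcripts of unequal length, and their mix differed between cell types. Gclm-201, of 5589 nt, carried 71.7 ± 1.96% of the Gclm TPM in cerebellar granule cells and 63.4 ± 4.54% of it in layer V neurons. Its share was 45.2 ± 5.93% in interneurons, 44.2 ± 2.15% in dentate gyrus granule cells, 30.6 ± 3.82% in astrocytes and 15.0 ± 1.97% in microglia (SD, n = 3). The 1002-nt Gclm-206, which has its end 4297 bases upstream of that of Gclm-201, carried 41.1 ± 3.5% in astrocytes and 41.3 ± 5.99% in microglia, against 28.2 ± 4.09% in dentate gyrus granule cells. Both are annotated as protein-coding. The rest of the Gclm TPM was on Gclm-202, Gclm-203, Gclm-204, Gclm-205 and Gclm-207. These are annotated as a processed transcript, a retained intron or protein-coding with incomplete ends. They enter the mean length and the length-scaled counts. The mean transcript length behind the Gclm level was thus 1640 nt in microglia and 4251 nt in cerebellar granule cells. A longer transcript gives more reads per molecule, and when counts were scaled to a common length the microglia difference was -0.03 (adjusted p = 0.71), while Gclm in astrocytes was then higher than in neurons by 1.52. On log2(TPM + 1) the microglia difference was -0.10 and was not called. These shares are kallisto's estimates from short reads, and the ends of the transcripts were not measured.

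**Figure D5:**
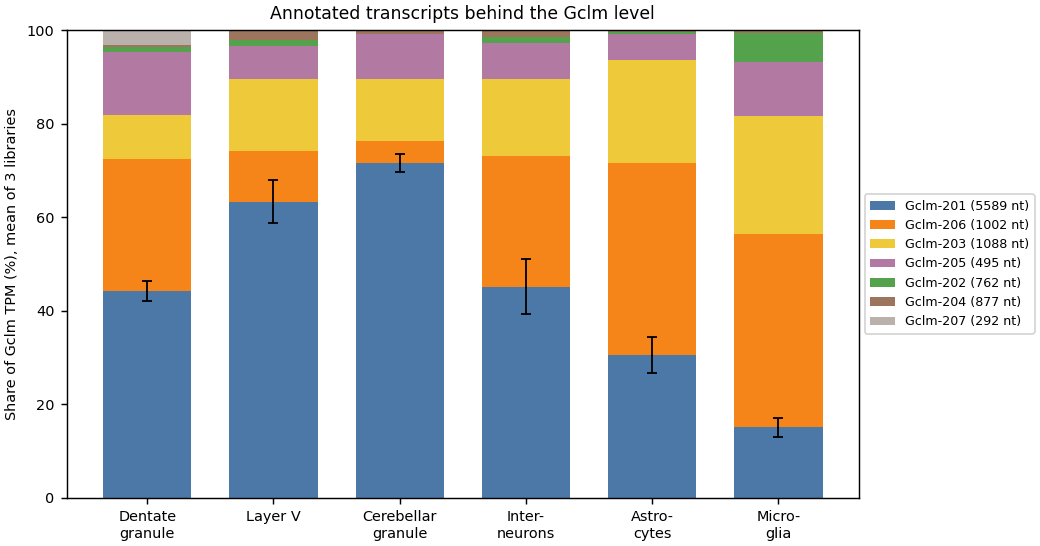
Share of the Gclm TPM (vertical axis, %) on each annotated transcript in the 6 cell types, as the mean of 3 libraries, with the SD drawn for Gclm-201. The 5589-nt Gclm-201 falls from 71.7% in cerebellar granule cells to 15.0% in microglia.

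The other 9 genes varied less in this respect. One transcript carried nearly all of Nfe2l2 (Nfe2l2-201, at least 96.5% on average in every cell type) and of Gclc (Gclc-201, at least 98.5%). In astrocytes Gstm5-206, of 658 nt, made up 18.2 ± 2.27% of Gstm5. Stretches of 31 bases shared with other genes limit how the reads can be split. Of the main Gpx4 transcript 73.6% were shared with the pseudogene Gpx4-ps2, to which 0.0856 to 0.505 TPM were assigned, and of the main Gstm1 transcript 26.9% with Gstm2-ps1, which received at most 0.14 TPM. The main Gstm5 transcript shared 16.2% with 4933431E20Rik, which held 9.87 TPM in microglia and 124 TPM in astrocytes, and no strand setting of the counting is stated. Of the main Gss transcript 9.98% were shared, 5.38% with Acss2 (13.5 TPM in microglia, 155 TPM in astrocytes). For the main transcripts of Slc7a11 and Gclm it was 3.53% and 2.97%, and those of Nfe2l2, Gclc, Gsr and Gpx1 shared none. The part of such reads in the low neuronal Slc7a11 values was not tested.

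Between the glial types, astrocytes had 6 genes higher and 3 lower than microglia, where 39.8% of all genes were called higher and 36.3% lower, and the median of the 10 was 0.45 against 0.04. Gstm1 was higher by 5.01 ± 0.09 (adjusted p = 3.1e-18), Gstm5 by 4.74 ± 0.06 (1.4e-19), Slc7a11 by 3.18 ± 0.15 (2.0e-12) and Gclm by 2.05 ± 0.05 (1.1e-16), the last being 1.55 with length-scaled counts. Gpx4 (0.55 ± 0.06) and Gsr (0.34 ± 0.07) were also higher. Gpx1 was lower in astrocytes by 2.31 ± 0.07 (2.6e-15) and Nfe2l2 by 1.36 ± 0.09 (3.4e-10). The Gss call (-0.16 ± 0.07) was lost in 14 of 29 alternatives. Gclc did not pass (0.06 ± 0.05, adjusted p = 0.31). Within batch 2, 1 astrocyte library stands against 3 microglia libraries, so its values have no replicate check and are given without a test: the difference was 4.84 for Gstm1, 4.62 for Gstm5, 3.26 for Slc7a11, 2.05 for Gclm, -2.23 for Gpx1 and -1.46 for Nfe2l2.

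Among neurons, each type was set against the mean of the other 3. Dentate gyrus granule cells had 5 genes higher and 4 lower, where 36.5% and 27.6% of all genes were called. Gstm1 was higher by 2.01 ± 0.06 (adjusted p = 1.1e-14) and Gss by 1.35 ± 0.05 (2.6e-13). Gclm fell by 1.04 ± 0.04, Gpx4 by 1.01 ± 0.05 and Gpx1 by 0.85 ± 0.06. In counts scaled to library size, dentate gyrus libraries did not overlap those of the other neurons for these 5 genes. In TPM this does not hold for Gclm, whose dentate gyrus level lay between those of layer V neurons and interneurons. The rise of Slc7a11 (0.50 ± 0.18) was lost in 8 of 30 alternatives, among them without dentate gyrus replicate 1 (0.29) and without replicate 3 (0.32).

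Layer V neurons had 4 genes higher and 6 lower, where 35.9% and 31.7% of all genes were called (7362 and 6504, against 4606 and 9024 on log2(TPM + 1) with limma). Nfe2l2 fell by 3.13 ± 0.17 (adjusted p = 1.9e-11), Gss by 1.12 ± 0.06 (3.0e-11), Gclm by 0.86 ± 0.04, Gstm1 by 0.82 ± 0.08, Gclc by 0.38 ± 0.04 and Gsr by 0.19 ± 0.06. Both peroxidases rose, Gpx4 by 0.60 ± 0.05 and Gpx1 by 0.52 ± 0.05. The calls of Gstm5 (0.12 ± 0.04) and Slc7a11 (0.42 ± 0.18, adjusted p = 0.048) were lost in 15 and 17 of 30 alternatives, leaving out any 1 layer V replicate among them.

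Cerebellar granule cells had 4 genes higher and 5 lower, where 34.9% and 43.0% of all genes were called and the median of all genes was -0.21. Gclm rose by 2.05 ± 0.04 (adjusted p = 1.3e-18; 1.68 with length-scaled counts), Nfe2l2 by 1.78 ± 0.11, Gsr by 1.06 ± 0.05 (1.8e-12) and Gclc by 0.44 ± 0.04, each without overlap with the other neurons. Slc7a11 fell by 1.84 ± 0.22, Gstm1 by 1.28 ± 0.08 and Gstm5 by 0.95 ± 0.05, also without overlap. For Nfe2l2 the log2 mean of the other neurons includes layer V neurons, at 0.252 TPM on 8 to 22 counts per library. The cerebellar Nfe2l2 level (3.70 TPM) was 1.61 times that of interneurons (2.30 TPM), and dentate gyrus granule cells held 2.09 TPM. The falls of Gpx1 (-0.21) and Gpx4 (-0.15) turned to 0.02 and 0.09 within batch 1, where interneurons have no library. The Gpx4 call was kept in 13 of 30 alternatives and was lost without any 1 layer V or astrocyte replicate, without dentate gyrus or cerebellar replicate 2 or 3 and without microglia replicate 1 (-0.09 to -0.06). The Gpx1 call was kept in 25 of 30 and was lost without cerebellar replicate 2 (-0.12) or 3 (-0.13).

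Interneurons had 5 genes higher and 4 lower, where 36.0% and 28.4% of all genes were called. Slc7a11 rose by 0.93 ± 0.17 (adjusted p = 0.00012), Nfe2l2 by 0.72 ± 0.12, Gpx1 and Gpx4 both by 0.55 ± 0.05 and Gstm5 by 0.54 ± 0.04. The Nfe2l2 rise is against a log2 mean that includes layer V neurons, at 0.252 TPM on 8 to 22 counts per library. It does not hold against each other neuron type. The interneuron level (2.30 TPM) lay below that of cerebellar granule cells (3.70 TPM) and overlapped that of dentate gyrus granule cells (2.09 TPM). Gsr fell by 0.65 ± 0.06 (1.5e-08) and Gss by 0.31 ± 0.06. Gclm fell by 0.15 ± 0.04 on counts but was higher by 0.30 on log2(TPM + 1) in limma, and its call and that of Gclc (-0.14 ± 0.04) were lost without interneuron replicate 3. The part of the oligodendrocyte RNA in these libraries was not tested.

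The rest of the pathway was read from 93 genes in 8 lists, of which 87 were tested. In astrocytes 58 were higher than in neurons and 17 lower, where 43.0% and 34.1% of all genes were called. In microglia 48 were higher and 29 lower, where the shares of all genes were 45.1% and 37.2%, and 54 were higher and 25 lower in astrocytes than in microglia (39.8% and 36.3% of all genes). These shares, and medians over all genes of 0.14 in astrocytes and 0.15 in microglia, are the background for every list that follows, and no list was tested against them. The part of endothelial RNA in the microglial values of the list genes was not tested. Nor was the part of choroid plexus RNA in their astrocyte values, whose replicate 1 held 3655 TPM of choroid plexus markers. On the 2 other scales tried, log2(TPM + 1) and length-scaled counts, every list gene named here kept its direction and call but Sod2. Of 15 NRF2 target enzymes outside glutathione chemistry, 13 were higher and 1 lower in astrocytes and 10 higher and 3 lower in microglia, with medians of 1.60 and 1.45 against 0.14 and 0.15 for all genes. The largest rise in both was in Osgin1, an oxidative stress growth inhibitor, whose level was 3.30 TPM in microglia, 0.745 TPM in astrocytes and near 0 in neurons (at most 0.118 TPM on average), so that its fold change rests on few counts. The 1 astrocyte fall was in Srxn1, sulfiredoxin (-0.96 ± 0.04), which also fell most in microglia (-2.70 ± 0.05). Me1, malic enzyme, differed most between the glia (115 TPM in astrocytes, 4.85 TPM in microglia).

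Of 9 NRF2 regulators, 4 were higher and 4 lower in astrocytes and 5 higher and 4 lower in microglia, with medians of 0.04 and 0.74. In astrocytes these counts are near the shares over all genes (43.0% higher, 34.1% lower). Maff, a small MAF partner, rose in both (2.37 ± 0.24 and 4.34 ± 0.21) at levels of 0.913 and 3.76 TPM, while the largest falls were Mafg in astrocytes (-0.74 ± 0.05) and Cul3, the ubiquitin ligase scaffold that works with KEAP1, in microglia (-1.36 ± 0.05). Bach1, a repressor at the same elements, was lower in astrocytes than in microglia by 2.56 ± 0.09.

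Of 15 genes of glutathione precursors, transport and turnover, 10 were higher and 4 lower in astrocytes and 9 higher and 5 lower in microglia, with medians of 3.43 and 0.70. The glutamate transporter Slc1a3, also one of the astrocyte markers, rose most in astrocytes (8.12 ± 0.09) and the neuronal transporter Slc1a1 fell most (-2.15 ± 0.06). In microglia Ggt5, a gamma-glutamyl transferase that cleaves extracellular conjugates, rose most (7.75 ± 0.13, 17.2 TPM) and Chac1, which degrades glutathione inside the cell, fell most (-3.43 ± 0.13, 0.564 TPM). Between the glia Slc1a2, the main astrocytic glutamate transporter, was the most raised in astrocytes (6.22 ± 0.14) and Ggt5 the most lowered (-4.32 ± 0.18). Of 18 other glutathione transferases tested, 13 were higher and 2 lower in astrocytes and 9 higher and 5 lower in microglia, with medians of 1.44 and 0.24. Microsomal Mgst1 led in astrocytes (7.85 ± 0.20, 81.0 TPM) and Gstm2 in microglia (5.10 ± 0.21, 9.70 TPM), and Mgst3 fell most in both (-1.38 ± 0.06 and -2.54 ± 0.07). Gstp2 was lower in astrocytes than in microglia (-1.93 ± 0.48). Gpx8, a peroxidase of the endoplasmic reticulum, rose in both glial types (6.02 ± 0.18 and 3.72 ± 0.20), and Gpx3, the secreted one, was lower in astrocytes than in microglia (-2.44 ± 0.38).

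Of 16 thioredoxin, glutaredoxin and peroxiredoxin genes, 10 were higher and 2 lower in astrocytes, and 6 were higher and 9 lower in microglia, with medians of 0.54 and -0.37 against 0.14 and 0.15 for all genes. Prdx6, a peroxiredoxin that uses glutathione, rose by 5.67 ± 0.04 in astrocytes, to 2313 TPM, a level close to that of Gstm1. Txnip, an inhibitor of thioredoxin, rose by 8.32 ± 0.09 in microglia, to 357 TPM. The largest falls were Prdx5 in astrocytes (-0.39 ± 0.04) and Prdx2 in microglia (-1.11 ± 0.04). All 5 superoxide dismutase and catalase genes were higher in astrocytes than in microglia, led by extracellular Sod3 (3.07 ± 0.12), which was above neurons by 6.50 ± 0.09 in astrocytes and 3.42 ± 0.10 in microglia. Mitochondrial Sod2 fell in microglia (-2.0 ± 0.05), and by less with length-scaled counts (-0.89) and on log2(TPM + 1) (-0.95). Its fall in astrocytes (-0.38 ± 0.04) reversed to 1.08 with length-scaled counts and 0.87 on log2(TPM + 1), and its TPM was higher there (251) than in any neuron type (119 to 193). Of 6 genes of selenoprotein synthesis, needed to make Gpx1 and Gpx4, 2 were higher and 3 lower in astrocytes and 3 higher and 1 lower in microglia. Their changes were small, from -0.80 ± 0.05 (Sephs2) to 0.90 ± 0.05 (Sepsecs) in astrocytes and from -0.66 ± 0.05 (Sephs2) to 0.75 ± 0.04 (Secisbp2) in microglia, and Eefsec was lower in astrocytes than in microglia by 1.15 ± 0.07.

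The genes with the pattern most like each member were found by Pearson correlation of log2(TPM + 1) over the 18 libraries among 12441 genes of at least 10 TPM in some cell type, as a description, since libraries of a cell type share their source. Slc7a11 was most like Vcam1 (r = 0.998), S1pr1 (0.998) and Heyl (0.997), Gstm1 most like Emp2 (0.998), Fads1 (0.990) and Cep128 (0.989), and Gstm5 most like Mfap3l (0.994) and Acsl3 (0.982). Nfe2l2 was most like Tcf3 (0.991), Acads (0.991) and Mavs (0.988), and Gpx1 most like Adcy7 (0.986), Ssr4 (0.982) and Il4ra (0.978). Gss was most like Ist1 (0.981), Prox1 (0.981) and Tubgcp2 (0.980), and Prox1 is one of the dentate gyrus markers. Gclm was most like Zfp219 (0.982), Gnpda2 (0.970) and Arhgap5 (0.968), Gclc most like Pfas (0.974), Eprs (0.969) and Patl1 (0.966), Gsr most like Mtch2 (0.961), Prim1 (0.953) and Abhd16a (0.951), and Gpx4 most like Phlda1 (0.952), Serf1 (0.952) and Fam149a (0.934).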

How the data were processed

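Reads from RiboTag libraries were trimmed by the authors with cutadapt 3.5 and quantified with kallisto 0.46.2 against GENCODE M24 transcripts. The authors deposited, per transcript, estimated counts (not normalized) and TPM. Kallisto splits reads among similar transcripts by an estimate, so values of genes with near-copies carry that uncertainty, and the strand setting is not given in the sources used here.

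Here transcripts were summed per gene and estimated counts rounded to whole numbers. The main test was edgeR 4.0.16 (R 4.3.3; TMM, filterByExpr, quasi-likelihood, cell type as the term) over 18 libraries, 1 per replicate, batch 1 where both batches had sequenced it, with Benjamini-Hochberg adjustment over 20524 genes. The study's methods name sleuth, which was not used here. Alternatives were DESeq2 1.42.0, limma 3.58.1 on log2(TPM + 1), limma with voom on all 22 libraries with a batch term, RLE factors, no filter, the batch 2 libraries, single batches, protein-coding transcripts, the replicate number as a block and each replicate left out. Added after seeing the data were length-scaled counts (gene TPM times its mean effective length) and a fit without interneurons. Scripts were tested on simulated data. The members, lists, motifs and markers were chosen with earlier results of these data known.

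Named were all 10 members and, from each list, the called gene with the largest rise and the largest fall in each of the 3 comparisons involving glia, with other list genes as counts, and for likeness the 3 genes with the highest correlation, of which 1 is not reported here. Depth was 38270477 to 71440915 counts per library, and SDs over 3 replicates give the precision.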

Additional observations from a re-analysis of the deposited data

Results flagged for a closer look

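Against the same neurons, 3 genes were called in opposite directions in astrocytes and in microglia, and the difference between the 2 glial types was itself called by edgeR. Gclm was higher in astrocytes and lower in microglia, with a difference of 2.05 on the log2 scale (1.55 with length-scaled counts, in which the microglial fall is -0.03). Gstm5 differed by 4.74, and 3.68% of its astrocyte level in microglia lies within the range of the astrocyte markers there (1.58 to 7.32%). Gpx4 differed by 0.55, and its fall in microglia was small (-0.12). Samples that stand apart within a group were not looked for, since each cell type has 3 libraries.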

How the results depend on the processing

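Of the 70 differences (10 genes in 7 comparisons) 65 were called, and 51 of these were called the same way under every alternative that gave a value. Over 2060 values 1944 kept direction and side of the threshold, 83 lost the call, 14 gained one and 19 changed sign. Counts of genes called moved by more than 1.5 times in these cases. In layer V neurons the genes called higher were 2 on log2(TPM + 1). Their count within batch 2 is not given, since layer V neurons have 1 library there. In cerebellar granule cells the genes called lower were 3 within batch 1 and 3 without interneurons. In interneurons the genes called lower were 2 without the low-count filter and 2 on log2(TPM + 1). With each replicate left out in turn, the genes called were 8 higher and 1 to 2 lower in astrocytes against neurons (2 without dentate gyrus replicate 3), 5 and 5 in microglia against neurons, 6 and 2 to 3 in astrocytes against microglia, 4 to 5 and 4 in dentate gyrus granule cells, 2 to 4 and 6 in layer V neurons (2 without any 1 layer V, cerebellar or astrocyte replicate or microglia replicate 1), 4 to 5 and 3 to 5 in cerebellar granule cells (3 without cerebellar replicate 2 or 3) and 5 to 6 and 2 to 4 in interneurons (2 without interneuron replicate 3).

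The sign changed for these values, and apart from the interneuron Gclm on log2(TPM + 1) none of the changed values was called. On log2(TPM + 1) they were Gclc between the glia (-0.017), Slc7a11 (-0.052) and Gstm5 (-0.11) in layer V neurons, and Gclc (0.039) and Gclm (0.30, adjusted p = 0.00017 in limma) in interneurons. With length-scaled counts they were Gsr in astrocytes (0.044) and Gclm in interneurons (0.15). With protein-coding transcripts alone they were, between the glia, Gclc (-0.049) and Gss (0.017). Within batch 1 they were Gclc in dentate gyrus granule cells (-0.012) and Gpx1 (0.019) and Gpx4 (0.094) in cerebellar granule cells, and without interneurons the same 3 genes (-0.018, 0.027 and 0.10) and Gpx4 in microglia (0.016). Gclc between the glia was -0.053 within batch 2 and, with each replicate left out, from -0.018 (without microglia replicate 1) to 0.112, with -0.000959 without astrocyte replicate 3. The cause was not tested. The log2(TPM + 1) scale moved the median of all genes by -0.24 in astrocytes, -0.21 in microglia, -0.16 in layer V neurons and 0.13 in cerebellar granule cells.

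The replicate number as a block left 8 higher and 1 lower in astrocytes and 5 and 5 in microglia, and took 1 call, Slc7a11 in layer V neurons (0.42). Same-numbered libraries of different cell types deviated together weakly at most. Their correlations ran from -0.10 to 0.109 (median 0.039, 45 pairs), against -0.116 to 0.132 (median -0.020) in 90 others. All were close to 0, so the numbers are not taken as pairs. Depth limits Nfe2l2 in layer V neurons and Slc7a11 in cerebellar granule cells, with 8 to 22 and 26 to 45 counts per library.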
